A study of Homo sapiens with 6 samples.

Results

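A set of 10 regulators of the ciliated cell state were followed through the treatment of differentiating human embryonic stem cells with saracatinib (SAR), a drug that blocks kinases of the Src family. They were FOXJ1, the transcription factors RFX1, RFX2, RFX3 and RFX4, the geminin family proteins MCIDAS and GMNC, and CCNO, MYB and TP73. They were chosen by name, for their known roles and with earlier results of these data known, out of the 40396 Ensembl genes measured. RNA was taken on day 3 of definitive endoderm (DE) differentiation of H1, an embryonic stem cell line. It came from 3 control samples given DMSO, the solvent, and 3 samples given 0.5 µM SAR. At this dose the study's western blots showed no effective inhibition of Src phosphorylation. They showed lower phosphorylation of FAK, another kinase, at some of its sites. Both groups also received 50 ng/ml activin A, a ligand of the TGF-beta family that drives DE formation, and 2.5 µM CHIR99021, which activates Wnt signaling, during 24 h. All samples were of 1 line and 1 time point, and it is not stated that replicates were separate cultures, so the p-values measure the spread between these samples, which may be technical.

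FOXJ1 is the master regulator of the motile cilium, the beating organelle that moves fluid over airway, oviduct and ependymal cells and also drives the leftward flow of the embryonic node. RFX factors bind a palindromic DNA element, the X-box, in genes of both motile and sensory cilia, and act with FOXJ1. Cells with many cilia use a further switch in which GMNC and MCIDAS, with E2F factors, turn on FOXJ1, TP73, MYB and CCNO, and CCNO serves the mass production of centrioles at structures called deuterosomes. Node cells carry a single motile cilium and make it without that amplification.

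Levels are given as FPKM, fragments of a gene divided by its length and by the total of the library, as the authors deposited them. The FPKM were also resolved into whole numbers of reads for 40395 of 40396 genes (within 0.001 reads, or 0.02 reads where counts were high), with library totals from 16681280 to 24419937, and 1 library, control replicate 1, had reads in 33169 genes against 29506 to 30109 in the others. Log2(FPKM + 0.1) was tested with limma for 16371 genes, those whose mean over all 6 libraries reached 0.5 FPKM. A gene was called where the Benjamini-Hochberg adjusted p fell below 0.05 and the log2 fold change exceeded 1 in size, and this scale understates the fold changes of low genes. Of the tested genes, 3.41% were called higher and 1.58% lower with SAR (559 and 259 genes), and their median log2 fold change was 0.12. After quantile normalization the split was 340 higher and 409 lower, and after median-ratio rescaling it was 403 and 362. Of the 10 regulators, 6 passed the minimum mean, 2 of these 6 were called higher (FOXJ1 and CCNO) and 0 lower. Both reached the minimum only through the SAR libraries, with control means of 0.463 and 0.386 FPKM, so genes that enter this way had to differ, and nothing is read from the count. The same holds for some genes of the lists below, whose number is given with each list. Counts among genes whose control mean reached the minimum are given too. No share over all such genes was computed, so those counts have no matching background.

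DE markers were present in both groups and moved in both directions, a background for every value below. The endodermal transcription factor SOX17 rose from a range of 29.6 to 33.1 FPKM in control to 48.7 to 85.3 FPKM with SAR, and HHEX, a factor of anterior endoderm, from 23.9 to 28.4 FPKM to 42.8 to 67.1 FPKM. FOXA2, a factor of endoderm that also stands in the node and floor plate lists used further on, rose from 22.3 to 25.1 FPKM to 60.1 to 67.3 FPKM. GATA4, EOMES, CER1 and GSC were called lower, by log2 fold changes of -1.05, -1.36, -1.28 and -1.48. The calls of SOX17 (log2 fold change 1.06) and HHEX (1.03) lay close to the fold threshold, and 1 of the 10 DE markers remained called higher after median-ratio rescaling against 3 before it.

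The promoters of CCNO and MCIDAS, neighbours on chromosome 5, are shown because both hold the core letters of the X-box. CCNO was called higher and MCIDAS was under the minimum mean, and the genes were not compared with each other. They are the 250 bases before each start site in the RefSeq table for GRCh38.p14, on the minus strand, at chr5:55233609-55233858 for CCNO and chr5:55227316-55227565 for MCIDAS, with capitals marking matches to the motifs described next:
CCNO: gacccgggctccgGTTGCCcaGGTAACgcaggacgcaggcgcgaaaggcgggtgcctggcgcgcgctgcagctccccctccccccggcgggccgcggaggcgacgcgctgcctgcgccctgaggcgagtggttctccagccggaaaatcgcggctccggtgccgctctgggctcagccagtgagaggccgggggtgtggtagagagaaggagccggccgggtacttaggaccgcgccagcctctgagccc
MCIDAS: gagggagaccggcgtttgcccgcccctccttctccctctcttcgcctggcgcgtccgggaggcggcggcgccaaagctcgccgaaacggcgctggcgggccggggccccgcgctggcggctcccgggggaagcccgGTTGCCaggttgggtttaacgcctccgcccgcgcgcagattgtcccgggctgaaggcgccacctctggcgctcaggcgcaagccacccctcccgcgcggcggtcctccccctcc

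A pair of patterns was searched on both strands of windows of 300 bases, 250 before and 50 after the start, and they were chosen after the sequences had been seen. The first was the RFX hexamer GTTGCC, and the second, which can contain the first, was the inverted pair GTTNCC and GGNAAC with 0 to 3 bases between them. The hexamer was in 12.2% of all 35116 windows and in 4 of the 14 windows found for 8 of the regulators, those of CCNO, MCIDAS, RFX1 and RFX4. The inverted pair was in 0.740% of all windows and in 2 of the 14, in CCNO at 237 bases before the start and in RFX4 around an annotated start. Among genes of the lists used further on, the pair was also in windows of ARL6, CEP135, C20orf85, DNAH1, IFT122, ODAD3 and SPAG16, named after their values had been seen. C20orf85 and SPAG16 were called higher, DNAH1 was under the minimum mean and the others were not called. The sites of CCNO and RFX4, and as an example that of SPAG16, a protein of the ciliary central pair, were as follows, with the pair in capitals:
CCNO, chr5:55233827-55233850, minus strand: ctccgGTTGCCcaGGTAACgcagg
RFX4, chr12:106601132-106601155, plus strand: gtggcGTTGCCatGGCAACccact
SPAG16, chr2:213284275-213284298, plus strand: acatcGTTGCCacGGTAACtggga

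A forkhead motif, TGTTTAC, was searched in the same way. It was in 3.42% of all windows and in 1 of the 14, that of MYB:
MYB, chr6:135181289-135181305, plus strand: atctcTGTTTACagagt
A match is a stretch of letters and not a bound site, and no binding was measured in these samples.

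FOXJ1 (ENSG00000129654, chromosome 17, 76136333 to 76141299, minus strand, GENCODE 29 on GRCh38) had 0.600, 0.380 and 0.410 FPKM in control replicates 1, 2 and 3 and 14.6, 13.0 and 8.28 FPKM in SAR replicates 1, 2 and 3. The lowest SAR library was 13.8 times the highest control, and the ratio of the means was 25.8. With limma its log2 fold change was 4.40 (95% interval 3.84 to 4.96, adjusted p = 0.000157). Every library thus carried FOXJ1 reads, 20 to 34 in control and 394 to 629 with SAR, and SAR replicate 3 was the lowest of the treated libraries. In bulk RNA, a change in the share of a cell type and a change in RNA per cell cannot be told apart. That holds for FOXJ1 and for every gene below. The exact permutation test over 3 against 3 libraries cannot go below p = 0.1, the value it gave for FOXJ1, and it was run for each of the 10 genes without adjustment.

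**Figure D1:**
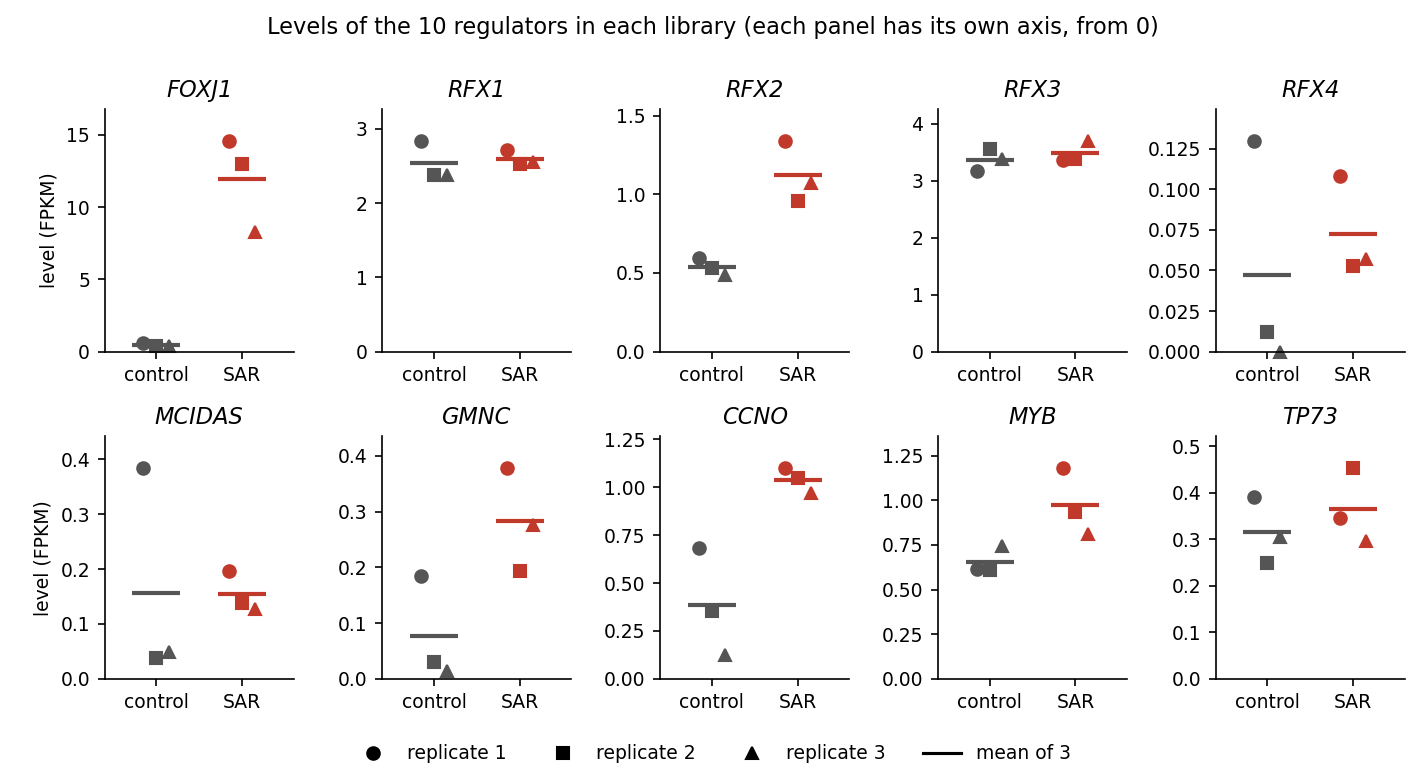
Level in FPKM (vertical axis, from 0 and separate for each gene) of the 10 regulators in 3 control and 3 SAR libraries. Points are libraries, marked by replicate number, and lines are group means. FOXJ1 went from at most 0.600 to at least 8.28 FPKM, RFX1 and RFX3 overlapped between the groups, and control replicate 1 was the highest control for 8 of the 10 genes.

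Of the RFX factors, RFX2 differed between the groups in every library and RFX1 and RFX3 overlapped. RFX2 (ENSG00000087903, chromosome 19, 5993164 to 6199572, minus strand), a factor needed for motile cilia and for spermiogenesis, had 0.597, 0.531 and 0.489 FPKM in control and 1.34, 0.960 and 1.07 FPKM with SAR. The groups did not overlap, as was so for 35.5% of all tested genes with SAR above control. Its log2 fold change of 0.93 (95% interval 0.48 to 1.37, adjusted p = 0.0114, limma) passed the p threshold, as 23.7% of tested genes did upward, but not the fold threshold. Without SAR replicate 2 its log2 fold change was 1.02 (adjusted p = 0.0272), past both thresholds. Of its exon bases, 2.06% lie under another gene of the same strand and 1.77% under genes of the opposite strand, and whether the counting used strand is not given in the sources used here.

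RFX1 (ENSG00000132005, chromosome 19, 13961538 to 14007039, minus strand), a widely expressed factor that can repress as well as activate, had 2.84, 2.38 and 2.38 FPKM in control and 2.72, 2.52 and 2.55 FPKM with SAR. Its log2 fold change was 0.04, with a 95% interval of -0.19 to 0.27 (adjusted p = 0.782, limma). RFX3 (ENSG00000080298, chromosome 9, 3218297 to 3526004, minus strand), which serves nodal and other cilia, had 3.16, 3.56 and 3.38 FPKM in control and 3.36, 3.38 and 3.70 FPKM with SAR. The difference of 0.05 on the log2 scale had a 95% interval of -0.14 to 0.23 (adjusted p = 0.668, limma). The sign of both differences turned with the scaling, to -0.08 for RFX1 and -0.07 for RFX3 after median-ratio rescaling.

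RFX4 (ENSG00000111783, chromosome 12, 106582907 to 106762803, plus strand), a factor of the developing neural tube, was near the floor of the assay and was not tested. It had 19, 2 and 0 reads in control (0.130, 0.0122 and 0 FPKM) and 12, 6 and 7 reads with SAR (0.108, 0.0530 and 0.0569 FPKM). The groups overlapped through the 19 reads of control replicate 1, and 6.93% of its exon bases lie opposite other genes. Of the summed FPKM of the 4 RFX factors, RFX2 made up 8.30% ± 0.534 in control and 15.4% ± 2.10 with SAR (SD, n = 3 each). RFX3 remained the most abundant of them, with 52.0% ± 4.40 and 47.9% ± 2.85 of the sum.

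The other genes of the family and the partners of RFX5 (RFX5, RFX6, RFX7, RFX8, RFXANK and RFXAP) gave 0 calls among 4 tested. Of all tested genes, 3.41% were called higher and 1.58% lower. The median log2 fold change of the list was 0.26. By adjusted p alone, 2 of the 4 were higher, against 23.7% of all tested genes, and 1 after median-ratio rescaling. They were RFX5 (8.02 to 8.18 FPKM in control and 9.04 to 10.9 FPKM with SAR, log2 fold change 0.30, adjusted p = 0.0242, and 0.18, adjusted p = 0.128, after rescaling) and RFXANK (10.2 to 10.7 and 12.8 to 15.2 FPKM, 0.42, adjusted p = 0.00684). RFX5 and RFXANK are known for MHC class II transcription. RFX6, a factor of the pancreas and gut, was at 0.02 to 0.190 FPKM in control and 0.0879 to 0.133 FPKM with SAR, and was not tested.

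The switch to multiciliation was represented by few reads. GMNC (ENSG00000205835, chromosome 3, 190852877 to 190892429, minus strand), which acts at its top, had 16, 3 and 1 reads in control (0.184, 0.0310 and 0.0134 FPKM) and 25, 13 and 20 reads with SAR (0.378, 0.194 and 0.275 FPKM). The SAR libraries were all above the controls, by 1.05 times at the nearest pair, as for 7.95% of the genes under the minimum mean. GMNC was not tested in limma with that minimum. In voom on the reads with no minimum, an alternative added after the values had been seen, it was called higher (log2 fold change 2.29, adjusted p = 0.0256), as were 2.05% of 40395 genes. Limma without the minimum did not call it (log2 fold change 1.21, adjusted p = 0.160). Leaving out a library in voom ended the call for control replicate 2 (1.99, adjusted p = 0.132), control replicate 3 (1.67, adjusted p = 0.190), SAR replicate 1 (2.06, adjusted p = 0.101) and SAR replicate 3 (2.27, adjusted p = 0.0559).

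MCIDAS (ENSG00000234602, chromosome 5, 55219614 to 55227315, minus strand), the next step of the switch, had 18, 2 and 2 reads in control (0.384, 0.0383 and 0.0495 FPKM) and 7, 5 and 5 reads with SAR (0.196, 0.138 and 0.127 FPKM). The highest library of all was control replicate 1, the other controls were the lowest, and the groups overlapped (exact permutation p = 0.800, two-sided). MCIDAS was not tested in limma, and voom without a minimum gave a log2 fold change of 0.52 (adjusted p = 0.720). Summed over MCIDAS and GMNC, the level was 0.568, 0.0693 and 0.0629 FPKM in control and 0.574, 0.331 and 0.401 FPKM with SAR.

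Control replicate 1 bears on each of these low values. It was the highest control for 8 of the 10 regulators, as it was for 42.4% of all tested genes and 55.0% of the genes under the minimum mean with reads in a control. Its part in the results was not tested beyond leaving it out. Without it, voom with no minimum called 4 of the 10 regulators higher, against 3.09% of all genes: FOXJ1 (log2 fold change 4.68), CCNO (2.01), GMNC (3.18, adjusted p = 0.00179) and RFX4 (3.07, adjusted p = 0.00647). MCIDAS remained uncalled there (1.44, adjusted p = 0.152). RFX4 then rested on 2 and 0 control reads against 6 to 12 with SAR.

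**Figure D2:**
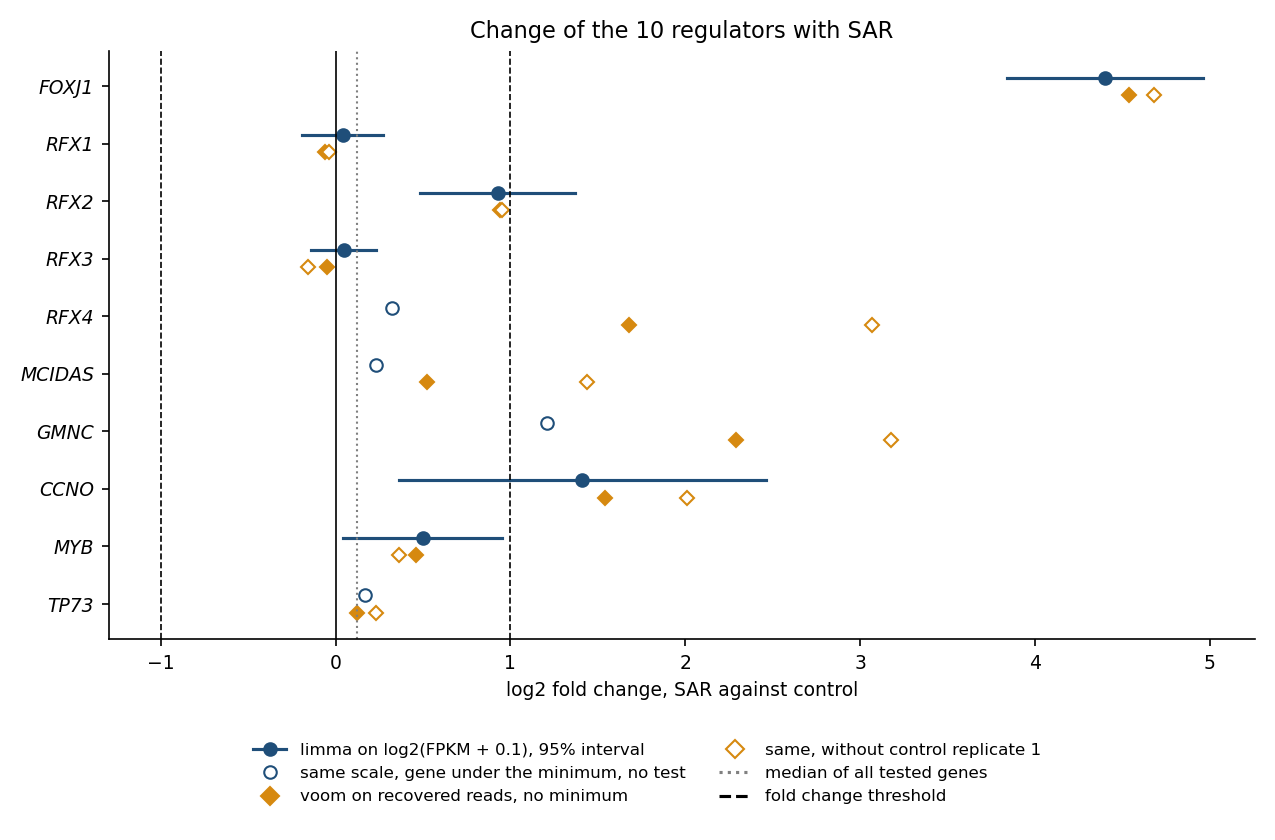
Log2 fold change of SAR against control (horizontal axis) for the 10 regulators. Blue circles are limma on log2(FPKM + 0.1), filled with 95% intervals for the 6 tested genes and open for the 4 under the minimum, and orange diamonds are voom on reads with no minimum, filled for all libraries and open without control replicate 1. FOXJ1 stood at 4.40, RFX1 and RFX3 had intervals across 0, and the diamonds of RFX4, MCIDAS and GMNC moved most when control replicate 1 was left out.

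CCNO (ENSG00000152669, chromosome 5, 55231152 to 55233680, minus strand), which licenses the amplification of centrioles, rose with SAR. It had 0.683, 0.354 and 0.122 FPKM in control (26, 15 and 4 reads) and 1.10, 1.05 and 0.970 FPKM with SAR (32, 31 and 31 reads). The 3 SAR libraries lay close together and above all controls, which spread widely. The log2 fold change was 1.41 (95% interval 0.36 to 2.46, adjusted p = 0.0476, limma), just past the threshold. The call was absent under 10 of 13 alternatives set for it. Of the libraries left out in turn it was lost without control replicate 2 (1.45, adjusted p = 0.101), control replicate 3 (0.94, adjusted p = 0.0712), SAR replicate 1 (1.37, adjusted p = 0.118), SAR replicate 2 (1.40, adjusted p = 0.118) and SAR replicate 3 (1.46, adjusted p = 0.0865), and it was kept without control replicate 1 (1.85, adjusted p = 0.0165).

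MYB (ENSG00000118513, chromosome 6, 135181315 to 135219173, plus strand), an early factor of multiciliated and of many dividing cells, had 0.614, 0.611 and 0.742 FPKM in control and 1.18, 0.933 and 0.811 FPKM with SAR. The groups did not overlap, but the lowest SAR library was 1.09 times the highest control. Its log2 fold change of 0.50 (95% interval 0.04 to 0.95, adjusted p = 0.0870, limma) did not pass. TP73 (ENSG00000078900, chromosome 1, 3652520 to 3736201, plus strand), a p53 family factor upstream of FOXJ1 in airway cells, had 0.391, 0.248 and 0.305 FPKM in control and 0.345, 0.453 and 0.297 FPKM with SAR. The groups overlapped (exact permutation p = 0.500, two-sided), TP73 was under the minimum mean, and 9.36% of its exon bases lie opposite TP73-AS1.

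In control the order of mean levels was RFX3, RFX1, MYB, RFX2, FOXJ1, CCNO, TP73, MCIDAS, GMNC and RFX4. The ranges of neighbours from RFX2 downward overlapped, while RFX3, RFX1 and MYB were each apart from the next. With SAR the order was FOXJ1, RFX3, RFX1, RFX2, CCNO, MYB, TP73, GMNC, MCIDAS and RFX4. FOXJ1, the fifth in control at 0.463 ± 0.119 FPKM, was then first at 12.0 ± 3.28 FPKM (SD, n = 3), above RFX3 at 3.48 ± 0.188 FPKM, and its range did not meet that of RFX3.

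The genes around the switch gave 0 calls, where 3.41% of all tested genes were called higher and 1.58% lower. Lists this short can give 0 calls at those shares. The E2F and DP factors that carry MCIDAS and GMNC, with the other partners (E2F4, E2F5, TFDP1, TFDP2, GMNN, FOXN4, TRRAP and JAZF1), had 7 tested members and a median log2 fold change of -0.02. E2F4 was at 12.4 to 14.5 FPKM in control and 12.2 to 14.2 FPKM with SAR, and E2F5 at 7.50 to 8.15 and 7.49 to 7.98 FPKM. TFDP2, a dimer partner of E2F factors, was higher by adjusted p alone (4.05 to 4.35 and 6.49 to 7.32 FPKM, log2 fold change 0.71, adjusted p = 0.00126). Among paralogs of the 10 genes, 0 of 6 tested were called, with FOXJ2 lower by p alone, as were 9.55% of all tested genes (5.99 to 7.60 and 3.80 to 4.12 FPKM, log2 fold change -0.74, adjusted p = 0.00257), MYBL2, a factor of dividing cells, lower by p alone (64.5 to 65.1 and 49.3 to 55.0 FPKM, -0.31, adjusted p = 0.00748) and FOXJ3 higher (13.2 to 13.8 and 19.5 to 23.9 FPKM, 0.64, adjusted p = 0.00259). FOXJ1 was thus the one gene of the FOXJ paralogs measured here, with FOXJ2 and FOXJ3, that passed both thresholds.

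Deuterosome genes, which serve the amplification of centrioles, were low in both groups. DEUP1, the scaffold of the deuterosome, was at 0.0627 to 0.119 FPKM in control and 0.0567 to 0.103 FPKM with SAR, and CDC20B at 0 to 0.182 and 0.0133 to 0.0392 FPKM. Both were under the minimum mean and overlapped between the groups. CCDC78 was tested and not called (1.02 to 1.41 and 1.43 to 1.66 FPKM, log2 fold change 0.36, adjusted p = 0.0964). Genes of ordinary centriole duplication had 0 calls among 13 tested, against 3.41% higher and 1.58% lower of all tested genes. Their median log2 fold change was -0.20. By adjusted p alone 3 of them were lower, against 9.55% of all tested genes. After median-ratio rescaling 7 were, with no share of all genes computed for that fit. The 3, named after their values had been seen, were STIL (-0.75, adjusted p = 0.000926), CENPJ (-0.41, adjusted p = 0.0125) and CEP192 (-0.29, adjusted p = 0.0206). PLK4, the kinase that starts centriole duplication, was at 6.03 to 6.23 and 6.05 to 6.75 FPKM (also named after its value had been seen).

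Genes of the axoneme, which FOXJ1 and RFX factors are known to activate, were called higher in part. Of 20 genes of the central pair and radial spokes, 8 were tested, 4 were called higher and 0 lower, against 3.41% and 1.58% of all tested genes, and the median was 0.97. Of the 4, 3 (SPAG6, RSPH1 and RSPH4A) reached the minimum only through the SAR libraries, so that count and median are partly set by the minimum, and of the 5 genes whose control mean reached the minimum 1 was called. SPAG16 rose from 3.31 to 3.43 FPKM to 6.45 to 7.43 FPKM (log2 fold change 1.01), SPAG6 from 0.264 to 0.377 FPKM to 1.39 to 1.78 FPKM (1.99), RSPH1 from 0.199 to 0.333 FPKM to 1.17 to 1.39 FPKM (2.05) and RSPH4A from 0.260 to 0.595 FPKM to 1.44 to 2.41 FPKM (2.04). SPAG16, close to the fold threshold, was not called after median-ratio rescaling, which left 3 calls in this group.

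Of 23 genes of the dynein arms, their docking and their regulators, 10 were tested. Of these, 3 were called higher and 0 lower, against 3.41% and 1.58% of all tested genes, with a median of 0.70. DRC1 and ODAD1 reached the minimum only through the SAR libraries, and of the 8 genes whose control mean reached the minimum 1 was called higher. Voom with no minimum called 7 of the 23 higher and 1 lower, against 827 higher (2.05%) and 529 lower of 40395 genes. The gene called lower was DNAH10 (0.232 to 0.402 FPKM in control and 0.0960 to 0.171 FPKM with SAR, log2 fold change -1.34, adjusted p = 0.00591, named after its values had been seen). DRC1, of the nexin-dynein regulatory complex, rose from 0.336 to 0.705 FPKM to 3.60 to 5.04 FPKM (log2 fold change 2.88), the docking gene ODAD1 from 0.279 to 0.603 to 1.78 to 2.85 FPKM (2.28) and ODAD4 from 0.629 to 0.975 to 1.87 to 2.22 FPKM (1.26). Of 15 assembly factors, which fold dyneins in the cytoplasm, 13 were tested and 3 were called higher, against 3.41% of all tested genes. They were ZMYND10, CFAP300 and DNAAF1 (log2 fold changes 1.91, 1.12 and 1.40), and the median of the list was 0.38. ZMYND10 and DNAAF1 reached the minimum only through the SAR libraries, and of the 10 genes whose control mean reached the minimum 1 was called higher. The count of assembly factors was 1 without control replicate 3 and 2 without each of the SAR replicates. Of 37 genes of intraflagellar transport and the BBSome, which all cilia use, 36 were tested. Of these, 1 was called higher (TTC30B, 1.16), against 3.41% of all tested genes. The median was 0.28, and TTC30B was not called without SAR replicate 1. By adjusted p alone 20 of the 36, TTC30B among them, were higher and 2 lower, against 23.7% and 9.55% of all tested genes. Median-ratio rescaling left 13 higher and 3 lower, with no share of all genes computed for that fit. Of the 23 dynein genes 13, and of the 20 central pair and spoke genes 12, were under the minimum mean.

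Genes listed as markers of the finished multiciliated cell were mixed, and whether they mark such cells here was not tested. Of 15, 7 were tested and 5 called higher, against 3.41% of all tested genes, with a median of 1.79. Of the 5, C20orf85, C9orf24 and LRRC10B reached the minimum only through the SAR libraries, so that count and median are partly set by the minimum. Of the 4 genes whose control mean reached the minimum, 2 were called higher. Values are given for TPPP3 (0.562 to 0.834 FPKM in control and 3.81 to 6.77 FPKM with SAR, log2 fold change 2.64), CFAP144 (0.583 to 0.866 and 2.39 to 3.56 FPKM, 1.79), C9orf24 (0.289 to 0.419 and 1.25 to 1.86 FPKM, 1.79) and LRRC10B (0.0933 to 0.302 and 0.910 to 1.14 FPKM, 1.90). C20orf85, named after its values had been seen, had the largest fold of the 5 (0 to 0.227 and 0.880 to 2.84 FPKM, log2 fold change 3.41). Their summed level was 4.27 to 5.85 FPKM in control and 14.2 to 19.3 FPKM with SAR. SNTN, a protein of the tip of airway cilia, was at most 0.0444 FPKM in any library and MS4A8 at most 0.124 FPKM. Voom with no minimum called 8 of the 15 higher, against 2.05% of all genes. Among them were TEKT1 (0 to 0.142 and 0.583 to 0.622 FPKM), FAM81B (0 to 0.0554 and 0.167 to 0.594 FPKM) and C11orf88 (0 to 0.0621 and 0.125 to 0.273 FPKM), which limma did not test. SNTN, MS4A8, TEKT1, FAM81B and C11orf88 were named after their values had been seen, as were CAPS and CDHR3. CAPS (log2 fold change 0.64, adjusted p = 0.0202, limma) and CDHR3 (-0.08, adjusted p = 0.710, limma) were tested and not called.

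**Figure D3:**
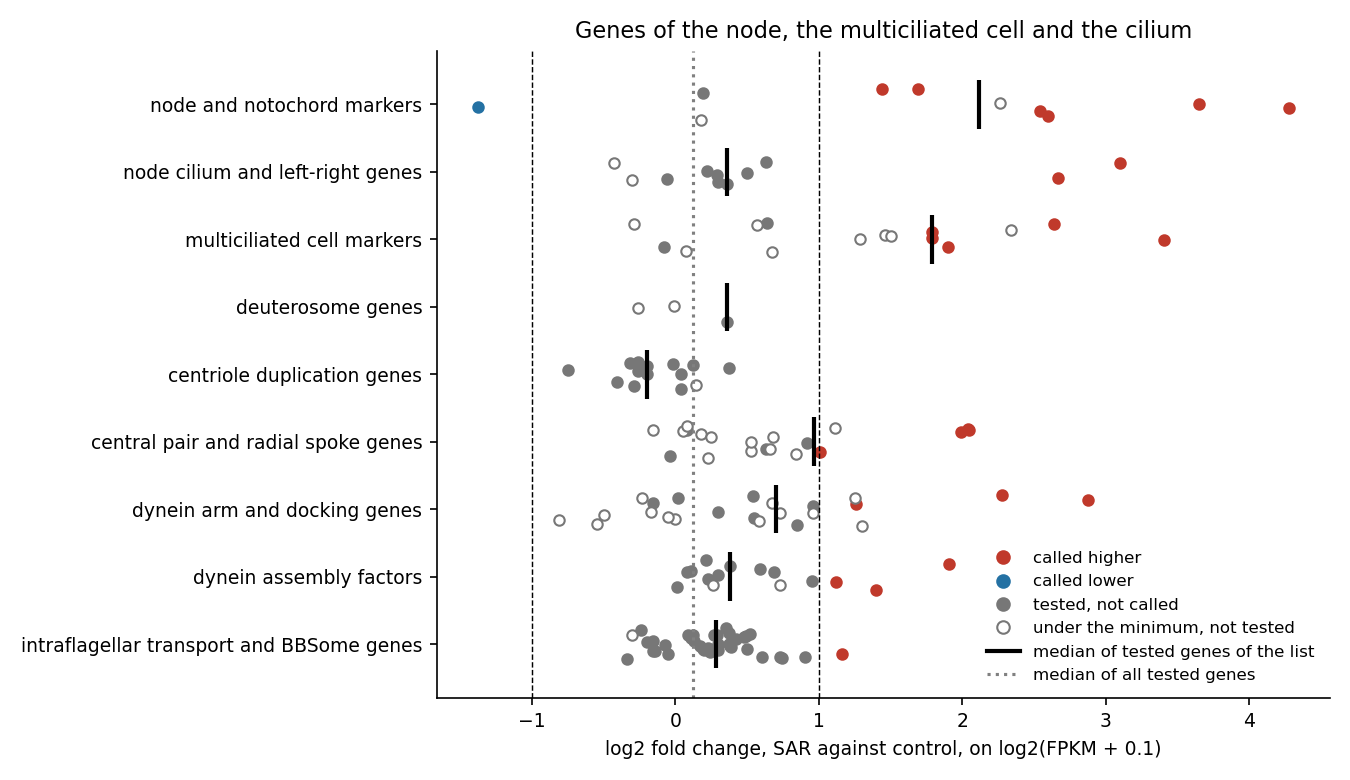
Log2 fold change on the log2(FPKM + 0.1) scale (horizontal axis) of every measured gene in 9 lists. Filled points were tested (red called higher, blue called lower, grey not called), open points were under the minimum mean, black bars are medians of tested genes and the dotted line, at 0.12, is the median over the 16371 genes. The medians of node and notochord markers (2.12) and multiciliated cell markers (1.79) lay to the right and that of centriole duplication genes (-0.20) to the left. The node and multiciliated medians are partly set by the minimum, which some of their genes reached only through the SAR libraries.

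Most tested genes listed as markers of the node and notochord were called higher, and whether they mark such cells here was not tested. FOXA2, 1 of them, also stands among the DE markers. Of 10, 8 were tested, 6 were called higher and 1 lower, against 3.41% and 1.58% of all tested genes, with a median of 2.12. NOTO and CHRD reached the minimum only through the SAR libraries, so that count and median are partly set by the minimum. Of the 6 genes whose control mean reached the minimum, 4 were called higher. CAV1 was called lower, and KRT8 was not called (log2 fold change 0.19, adjusted p = 0.123, limma). NOTO, a homeobox factor of the node, had 0.113, 0.0842 and 0 FPKM in control and 2.71, 1.77 and 1.36 FPKM with SAR (log2 fold change 3.65, adjusted p = 0.00164). TBXT, also called brachyury and not limited to the notochord, had 3.79, 3.40 and 3.34 FPKM and 14.0, 11.4 and 9.69 FPKM (1.69, adjusted p = 0.000574). The groups did not overlap in either gene. FOXA1 (1.67 to 1.93 and 9.70 to 12.6 FPKM), the BMP antagonist CHRD (0.192 to 0.414 and 1.86 to 2.32 FPKM) and the secreted peptide TFF3 (0.266 to 1.14 and 11.3 to 12.6 FPKM) also rose, and CAV1 fell (7.39 to 12.4 and 3.54 to 4.41 FPKM). SHH, the ligand that the notochord secretes, was at 0.0391 to 0.166 FPKM in control and 0.744 to 0.836 FPKM with SAR and was under the minimum mean, and the BMP antagonist NOG was at 0.0428 to 0.215 and 0.0308 to 0.219 FPKM.

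Of 11 measured genes of the node cilium and of left-right patterning, 9 were tested and 2 called higher, against 3.41% of all tested genes. The median was 0.36. Both of the called genes reached the minimum only through the SAR libraries. Of the 7 genes whose control mean reached the minimum, 0 were called higher. CIROP, a metalloprotease of left-right organizers with motile cilia, had 0.565, 0.190 and 0.115 FPKM in control and 2.26, 2.03 and 2.04 FPKM with SAR (log2 fold change 2.67, adjusted p = 0.00424), and PKD1L1, a flow sensor of the node, had 0.471, 0.0239 and 0.0206 FPKM and 1.43, 1.41 and 2.21 FPKM (3.10, adjusted p = 0.0113). In both genes control replicate 1 was again the highest control and the groups did not overlap. Of the floor plate list, 3 of 10 measured genes were tested. FOXA2 was called higher and NTN1 lower (14.1 to 18.5 and 5.06 to 6.33 FPKM), against 3.41% and 1.58% of all tested genes. The part of any cell type in these values was not tested. Without control replicate 1, limma called 722 of all genes higher. The counts called higher in the lists were then 7 for node and notochord markers, 2 for node cilium genes, 5 for multiciliated cell markers, 5 for central pair and spoke genes, 4 for dynein arm genes and 3 for assembly factors. In that fit the minimum mean was taken over the remaining libraries, and the share of tested genes called was not computed. SHH then reached the minimum, only through the SAR libraries, and was called higher (2.50, adjusted p = 0.00756, limma).

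Markers of other cell types were mostly under the minimum mean, which limits how many could be called. Of 11 neural ectoderm markers 2 were tested and SIX3 was called higher (0.226 to 0.449 and 1.02 to 1.32 FPKM), with SOX1 at 0 in all 3 controls and at 0 to 0.167 FPKM with SAR and HES5 at 0 in all 3 SAR libraries (both named after their values had been seen). Of 9 mesoderm markers 3 were tested and 0 called, with a summed level of 4.56 to 5.75 FPKM in control and 6.08 to 7.26 FPKM with SAR and FOXF1 at 0 in all SAR libraries. Of 9 blood and endothelial markers 1 was tested and 0 were called. Voom with no minimum called the neural factor PAX6 lower (0.0616 to 0.106 and 0.00263 to 0.0029 FPKM, log2 fold change -4.51, adjusted p = 0.000110) and the endothelial adhesion gene PECAM1 higher (0.0411 to 0.118 and 0.240 to 0.274 FPKM, 1.97, adjusted p = 0.00306), with PAX6 named after its values had been seen. Of 8 pluripotency markers, all tested, NANOG was called lower (13.3 to 16.6 and 5.36 to 6.54 FPKM) and 0 higher, against 1.58% and 3.41% of all tested genes. By adjusted p alone 3 were higher and 1 lower, against 23.7% and 9.55% of all tested genes, and the median was 0.21. SOX2 rose from 16.1 to 28.9 FPKM to 37.0 to 43.2 FPKM (log2 fold change 0.88, adjusted p = 0.0153, limma). Without control replicate 1, limma called SOX2 higher (1.10, adjusted p = 0.00519).

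The RFX hexamer was unevenly spread over these lists, as a description of sequence that used no expression value. It was in 10 of 18 windows (55.6%) of central pair and radial spoke genes, 12 of 25 (48.0%) of dynein arm genes, 7 of 15 (46.7%) of multiciliated cell markers and 14 of 36 (38.9%) of intraflagellar transport and BBSome genes. It was also in 2 of 3 windows of deuterosome genes (66.7%) and 5 of 15 of centriole duplication genes (33.3%). In these lists 1 and 13 genes were tested and 0 were called higher, against 3.41% of all tested genes. In node and notochord markers it was in 1 of 10 windows and in DE markers in 0 of 9. Intraflagellar transport genes carried the hexamer above the 12.2% of all windows, and 1 of their 36 tested genes was called higher. By adjusted p alone 20 of the 36 were higher and 2 lower, against 23.7% and 9.55% of all tested genes. After median-ratio rescaling 13 were higher and 3 lower, with no share of all genes computed for that fit. Whether the hexamer bears on any change in these lists was not tested.

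**Figure D4:**
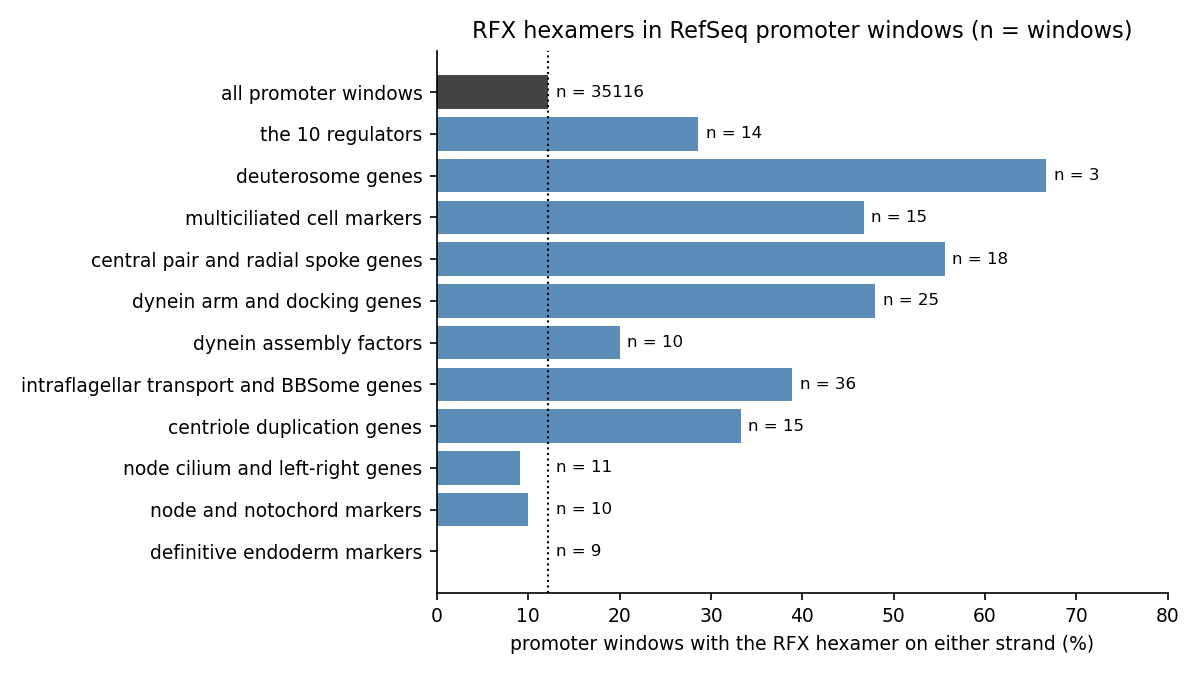
Share of RefSeq promoter windows of 300 bases, in percent (horizontal axis), that hold the RFX hexamer on either strand, for all windows and for the windows of each list, with the number of windows beside each bar. The dotted line is the share of all windows, 12.2%, and the lists of axoneme genes lay above it (55.6% for central pair and radial spoke genes) and node and notochord markers (10.0%) below it.

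The genes most like FOXJ1 over the 6 libraries, by Pearson's r of log2(FPKM + 0.1) among the 13471 genes whose mean reached 1 FPKM, were UNC79 (r = 0.9988), CADPS (0.9987), KIF26B (0.9986), EMP2 (0.9982) and CCDC106 (0.9982). An r of 0.99 or more was reached by 146 genes, and the 6 points share 2 conditions, so r largely follows the difference between the groups. CADPS, a factor of vesicle secretion, and KIF26B, a kinesin, were called higher, from 1.17 to 1.36 FPKM to 2.42 to 2.78 FPKM and from 0.685 to 0.818 FPKM to 1.77 to 1.95 FPKM. UNC79, EMP2 and CCDC106 had log2 fold changes of 0.72, 0.61 and 0.52 and missed the fold threshold.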

How the data were processed

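RNA-seq of 3 control and 3 SAR libraries was analysed, with groups and replicate numbers from the sample labels. The authors selected mRNA with oligo(dT), sequenced paired-end reads and deposited FPKM per gene, 1 column per library and without pooling. The submitters' processing notes name HISAT2, featureCounts, Subread, DESeq2 and GRCh38.p13, without role. No scaling between libraries went beyond the library total. The gene length behind the FPKM equalled the GENCODE 29 exon union for 58.0% of the genes found there.

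Log2(FPKM + 0.1) was tested with limma 3.58.1 (eBayes with trend) in R 4.3.3, without a block, for genes whose mean reached 0.5 FPKM, and p-values were adjusted over all 16371 genes tested. Whole reads behind the FPKM were recovered from ratios between libraries, for depth and for voom with TMM factors, which called 512 genes higher and 384 lower above the same minimum. Within a group the reads of any pair of libraries gave a chi-square of 3.98 to 13.2 per degree of freedom, so no library was a second sequencing of another. That does not tell whether the cultures or RNA samples were separate. Summaries used Python 3.11.15, pandas 2.3.3, numpy 2.4.6, scipy 1.17.1 and matplotlib 3.10.9.

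The 10 regulators and 18 gene lists were chosen with earlier results of these data known. Named genes were the 10 regulators, up to 4 called genes of each list by adjusted p, any gene of lists of at most 10, and the 5 genes most like FOXJ1. Any other gene is marked as picked with its value known. Alternatives were pseudocounts of 1 and 0.01, a minimum mean of 1 FPKM or none, scaling by median ratios or quantiles, voom, a replicate block and each library left out in turn. Voom with no minimum, also with each library left out, was added after the data had been seen. Symbols were found for 40304 IDs, and 39023 IDs were in GENCODE 29. Western blots, flow cytometry and qPCR were not analysed here.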

Additional observations from a re-analysis of the deposited data

How the results depend on the processing

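FOXJ1 was called higher under all 14 alternatives set for it, with log2 fold changes of 3.12 to 4.65, and 0 regulators were called lower under any. The number of regulators called higher was 1 in place of 2 with a pseudocount of 1, with no minimum, with a minimum mean of 1 FPKM, and after median-ratio or quantile scaling. It was 1 to 2 with single libraries left out, and 1 to 4 in voom with no minimum. CCNO lost its call with a pseudocount of 1 (0.58) or 0.01 (1.71), no minimum (1.41, adjusted p = 0.108) and median-ratio (1.31) or quantile scaling (1.26), and ranged from 0.94 to 1.85 with libraries left out (0.97 to 2.01 in voom with no minimum, uncalled at 1.62 without control replicate 2, 0.97 without control replicate 3 and 1.50, 1.53 and 1.58 without SAR replicates 1, 2 and 3). RFX2 passed the fold threshold in limma at pseudocount 0.01 (1.04) and, with SAR replicate 2 left out, in limma (1.02) and in voom with no minimum (1.05). Over libraries left out it ranged from 0.80 to 1.02 in limma. RFX1, RFX3 and MYB were called under no alternative. Of all genes, 169 were called higher and 141 lower with a pseudocount of 1, 369 higher with a minimum mean of 1 FPKM, and 340 higher and 409 lower after quantile scaling. Voom with no minimum called 827 higher and 529 lower, and with libraries left out 438 to 1169 higher and 324 to 764 lower, the most without control replicate 1 (485 lower without control replicate 2 and 465 without SAR replicate 3). Limma with libraries left out called 440 to 722 higher and 215 to 338 lower. The replicate numbers did not pair the samples (correlations of same-numbered deviations 0.0729, 0.00286 and 0.0247), and with a replicate block 546 genes were called higher and 274 lower, with 2 regulators higher, FOXJ1 and CCNO. The cause of these shifts was not tested. With 3 libraries a group, and at most 19 reads in any library for MCIDAS and RFX4, the values of these genes rest on few reads.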

Other observations

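The neighbours of FOXJ1 and of CCNO within 60 kb were examined after the results had been seen. RNF157, a ubiquitin ligase gene that lies upstream of FOXJ1 on the same strand (chromosome 17, 76142453 to 76240373), was called higher, with 0.629, 0.497 and 0.636 FPKM in control and 1.23, 1.28 and 1.34 FPKM with SAR (log2 fold change 1.01, adjusted p = 0.00480, limma). Its fold lay at the threshold, and it was not called after median-ratio rescaling (0.90). RNF157-AS1, an antisense transcript on the plus strand that overlaps 0.341% of the exon bases of FOXJ1, had 8, 7 and 6 reads in control and 21, 29 and 27 reads with SAR, and was called higher by voom with no minimum (log2 fold change 2.02, adjusted p = 0.00229). EXOC7, on the other side of FOXJ1, was at 4.46 to 5.43 FPKM in control and 5.68 to 7.56 FPKM with SAR and was not called. In RNF157 the 3 SAR libraries stood in another order than in FOXJ1, with SAR replicate 3 the highest.

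Around CCNO and MCIDAS, DHX29, an RNA helicase gene of translation initiation, was not called (11.9, 12.8 and 12.5 FPKM in control and 10.7, 10.9 and 11 FPKM with SAR). CDC20B, on the other side, had 18, 2 and 0 reads in control and 1, 3 and 2 reads with SAR. The 3 control libraries had 26, 15 and 4 reads of CCNO, 18, 2 and 2 of MCIDAS and 18, 2 and 0 of CDC20B, so control replicate 1 was the highest control for the 3 genes.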
